A study of Saccharomyces cerevisiae with 15 samples.

Results

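Subtelomeric genes are the outermost genes of the chromosomes, and they were taken here as every nuclear gene lying wholly within 20 kb of either end of its chromosome, the right end being set by the last gene in the count table. This gave 313 of 6664 nuclear genes, spread over the 32 ends of 16 chromosomes, and the other 6351 nuclear genes served for comparison. The cells were the yeast Saccharomyces cerevisiae, and every strain shared the genotype MATa his3∆1 leu2∆ met15∆ ura3∆, with WT labelled BY4741. There were 5 groups of 3 RNA-seq libraries: wild type (WT) without sulfometuron methyl (SM), WT with SM, and 3 strains carrying spt3∆::kanMX4, spt8∆::kanMX4 or gcn5∆::kanMX4, all with SM. SM inhibits the synthesis of isoleucine and valine and thereby induces the transcription factor Gcn4. It was given at 1 µg/ml for 25 min to cells in medium without these amino acids, at 30 °C and an OD600 of 0.6 to 0.8. Spt3, Spt8 and Gcn5 are subunits of the coactivator SAGA, and the labels name its part in recruiting the TATA-binding protein as the question. No deletion strain was analysed without SM, so a strain's level before SM cannot be told apart from its response. Each deletion strain is 1 strain, and nothing says that its 3 libraries came from separate transformants or cultures, so p-values measure the spread between these libraries, which may be technical.

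Yeast chromosome ends consist of simple telomeric repeats bound by Rap1, followed inward by X elements and, at some ends, Y′ elements. Genes near the ends can be silenced by the Sir2, Sir3 and Sir4 proteins, which spread over nucleosomes with unacetylated histone tails and are met by acetylated ones. Much of the remaining subtelomeric sequence holds gene families for cell wall proteins, sugar and metal uptake and vitamin synthesis, many of them repressed in rich medium and present in several near-identical copies. SAGA delivers the TATA-binding protein through Spt3 and Spt8 and acetylates histones through Gcn5.

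Sequences of a chromosome end and of some members are given first, read from the RefSeq genome of the R64 assembly, the sequence known as sacCer3. The right end of chromosome VI (chrVI:270102-270161, plus strand) shows what an end looks like, with each GGT in capitals, and it lies beyond YFR057W, the outermost gene of that arm in the count table.
chromosome VI right end: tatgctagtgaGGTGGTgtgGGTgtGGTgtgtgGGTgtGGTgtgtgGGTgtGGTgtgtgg
The promoters of 5 members with large and differing changes follow, from 250 bases before the start codon to 50 bases after its first base. Capitals mark TATAAA and TATATA, which belong to the TATA box consensus, and TGACTCA, the Gcn4 motif, on either strand. They are YFR057W (chrVI:268811-269110, plus strand), HXK1 (chrVI:255000-255299, minus strand), MAL31 (chrII:804426-804725, minus strand), COS12 (chrVII:2540-2839, plus strand) and LYS1 (chrIX:420687-420986, minus strand).
YFR057W: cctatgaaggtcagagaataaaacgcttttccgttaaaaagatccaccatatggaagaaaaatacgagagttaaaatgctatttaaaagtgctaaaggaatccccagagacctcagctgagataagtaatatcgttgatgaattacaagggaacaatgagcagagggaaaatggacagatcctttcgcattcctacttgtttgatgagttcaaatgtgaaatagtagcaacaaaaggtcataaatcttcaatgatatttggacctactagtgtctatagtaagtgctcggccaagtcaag
HXK1: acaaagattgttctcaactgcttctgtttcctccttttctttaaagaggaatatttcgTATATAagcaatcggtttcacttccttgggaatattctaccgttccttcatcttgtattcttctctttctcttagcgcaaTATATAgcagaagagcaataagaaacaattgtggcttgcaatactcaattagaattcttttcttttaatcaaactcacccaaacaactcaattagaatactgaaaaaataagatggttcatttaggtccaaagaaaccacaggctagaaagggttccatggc
MAL31: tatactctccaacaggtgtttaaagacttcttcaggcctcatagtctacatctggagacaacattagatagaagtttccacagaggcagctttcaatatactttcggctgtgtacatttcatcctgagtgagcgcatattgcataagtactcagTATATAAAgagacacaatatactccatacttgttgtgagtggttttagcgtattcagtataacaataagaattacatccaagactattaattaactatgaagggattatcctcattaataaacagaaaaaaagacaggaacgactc
COS12: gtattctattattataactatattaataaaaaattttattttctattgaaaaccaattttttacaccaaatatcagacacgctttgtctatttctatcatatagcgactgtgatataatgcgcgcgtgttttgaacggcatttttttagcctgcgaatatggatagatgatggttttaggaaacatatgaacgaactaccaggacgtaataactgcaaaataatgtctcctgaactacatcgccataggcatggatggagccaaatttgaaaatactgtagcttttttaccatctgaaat
LYS1: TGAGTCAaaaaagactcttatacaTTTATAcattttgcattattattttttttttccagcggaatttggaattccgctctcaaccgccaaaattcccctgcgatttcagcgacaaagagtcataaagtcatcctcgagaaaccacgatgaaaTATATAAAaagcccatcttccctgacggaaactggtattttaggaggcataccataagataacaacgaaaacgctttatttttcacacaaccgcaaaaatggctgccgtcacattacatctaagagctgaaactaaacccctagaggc
In these windows HXK1, MAL31 and LYS1 hold a TATA motif, LYS1 alone holds the Gcn4 motif, and YFR057W and COS12 hold neither. Over all members whose window lies on the chromosome, TATAAA or TATATA occurred in 194 of 312 (62.2%), against 58.1% of 6663 nuclear promoters of the same length. TGACTCA or TGAGTCA occurred in 3 of 312 (0.962%), against 2.72% of all. Whether a motif goes with a change was not tested.

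The same genome shows why counts of many members are uncertain. Of the 313 members, 177 (56.5%) had at least 1 other locus with 95% identity or more over at least 50% of their length, against 212 of the 6351 other nuclear genes (3.34%). Among genes within 5 kb of an end the share was 82.3%, and among those at 15 to 20 kb it was 23.8%. A further set overlapped another gene, and 197 members in all had a copy or an overlap. The sources used here do not say how reads shared by copies were counted, or on which strand, so values of these members may be split between loci. The stretch of 60 bases with most differences is printed for 4 of the short open reading frames that lie opposite Y′ genes, with bases that differ from YHL050W-A in capitals. They lie at chrVIII:1148-1207, chrV:967-1026 and chrXIII:1164-1223 on the plus strand and at chrXII:1070473-1070532 on the minus strand.
YHL050W-A: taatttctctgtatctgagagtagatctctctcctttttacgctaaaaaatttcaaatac
YEL077W-A: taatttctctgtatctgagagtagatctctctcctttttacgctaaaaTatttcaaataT
YML133W-B: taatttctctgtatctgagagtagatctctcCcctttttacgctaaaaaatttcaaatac
YLR466C-A: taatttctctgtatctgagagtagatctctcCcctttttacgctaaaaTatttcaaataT
Over their 483 bases they differed from YHL050W-A at 3, 3 and 4 positions. The same is printed for the 4 members of the THI5 family, which make a precursor of thiamine, with differences from THI5 in capitals. They lie at chrVI:13337-13396, chrXIV:15240-15299 and chrIV:16612-16671 on the plus strand and at chrX:729129-729188 on the minus strand.
THI5: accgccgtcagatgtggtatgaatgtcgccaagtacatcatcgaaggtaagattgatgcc
THI11: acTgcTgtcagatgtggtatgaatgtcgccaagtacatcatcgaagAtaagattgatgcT
THI12: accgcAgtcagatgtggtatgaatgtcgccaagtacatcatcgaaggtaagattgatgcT
THI13: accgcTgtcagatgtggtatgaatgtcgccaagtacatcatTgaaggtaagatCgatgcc
Over 1023 bases they differed from THI5 at 12, 7 and 19 positions.

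Depth ran from 24830028 to 45707685 yeast counts per library, and counts were scaled by the ERCC spike-in RNAs, which were added to a fixed amount of RNA. Within spt3∆ and within gcn5∆ 1 library stood apart in yeast counts per spike-in: spt3∆ replicate 1 gave 48.9 Mcounts (megacounts) of yeast RNA per unit of the spike-in factor against 34.6 and 37.3, and gcn5∆ replicate 3 gave 43.0 against 30.3 and 29.4. The deleted genes were close to absent in their own strains, with 1, 3 and 3 SPT3 counts in spt3∆, 16, 17 and 11 SPT8 counts in spt8∆ and 12, 29 and 18 GCN5 counts in gcn5∆, where the other groups had at least 668. The a-cell receptor gene STE2 had 39313 ± 3159 scaled counts in WT without SM (SD, n = 3) and the alpha-cell receptor gene STE3 had 525 ± 54.3, beside a label of MATa. Over 7 a-specific genes the means in that group ran from 1134 (ASG7) up to that of STE2. Over 4 alpha-specific genes they ran from 16.9 (MF(ALPHA)2) to 3936 (SAG1), so the 2 lists overlapped. Library names fall into 2 sets, of which the first holds WT and spt3∆ and the second holds spt8∆ and gcn5∆. The strain and the set cannot be told apart when spt8∆ or gcn5∆ is compared with WT. All 3 deletions were compared with the same WT libraries.

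Subtelomeric genes were weakly expressed, and more so the nearer they lay to the end. Their median level over all libraries was 10.1 CPM per kb of gene (CPM, counts scaled to library size), against 64.3 for other nuclear genes. Distance from the end was taken to the far edge of each gene throughout. The median was 1.42 within 5 kb, 10.1 at 5 to 10 kb, 14.5 at 10 to 15 kb and 28.8 at 15 to 20 kb. It went on to 49.3 at 20 to 40 kb and 65.0 farther in. Among the 116 members with neither a copy nor an overlap the median was 26.1, against 71.6 for such other nuclear genes. By distance these members had 1.86 within 5 kb (12 genes), then 22.5, 24.8 and 36.5. The part of copies in the lower values of all members was not tested. By group the median of all 313 was 4.61 in WT without SM, 11.2 in WT with SM, 6.80 in spt3∆, 8.34 in spt8∆ and 12.9 in gcn5∆, while that of other nuclear genes ran from 50.02 to 68.05. In such bulk RNA, fewer cells expressing a gene and less RNA per cell cannot be told apart. Of the 313 members, 271 passed the filter on low counts and 42 did not, and 26 of the 42 lay within 5 kb of an end. The latter had between 1 and 79 counts in total over the 15 libraries. Of the 271, 223 were above the filter's bound in all 15 libraries, while 14 were above it in every library of at most 1 group. These 14 passed through 1 group or through scattered libraries in which they were high, and they stay in the counts below. Counts below therefore describe the tested members and not all 313.

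The nearest genes inside the 20 kb limit were MGA2, whose far edge lies at 19.9 kb, YPR195C and MMP1, and the nearest outside were TOG1 at 20.2 kb, MAL13 and YHR214W.

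Per library, subtelomeric genes took between 0.968% and 1.03% of yeast counts in WT without SM and between 1.26% and 1.27% in WT with SM. In spt3∆ the share was 1.08% to 1.11%, in spt8∆ 1.15% to 1.20% and in gcn5∆ 1.24% to 1.29%. All 3 WT libraries with SM lay above all libraries without SM, and all spt3∆ and spt8∆ libraries lay below all WT libraries with SM, whereas gcn5∆ overlapped WT. The second most abundant member, YHR214C-B, is a Ty row, and without Ty rows the shares were 0.942 ± 0.0359%, 1.21 ± 0.00491%, 1.02 ± 0.0196%, 1.12 ± 0.0254% and 1.20 ± 0.0157% in the same order. The genes within 5 kb of an end took another order, with the lowest share in spt3∆ (0.0612 ± 0.00131%) and the highest in gcn5∆ (0.0926 ± 0.00207%), against 0.0785 ± 0.00278% in WT with SM (SD, n = 3 each). Without the open reading frames opposite Y′ genes these shares were 0.0602 ± 0.00125%, 0.0869 ± 0.00371% and 0.0775 ± 0.00269%. With or without these frames the 3 gcn5∆ libraries lay above every other library, and the 3 spt3∆ libraries below every other.

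**Figure D1:**
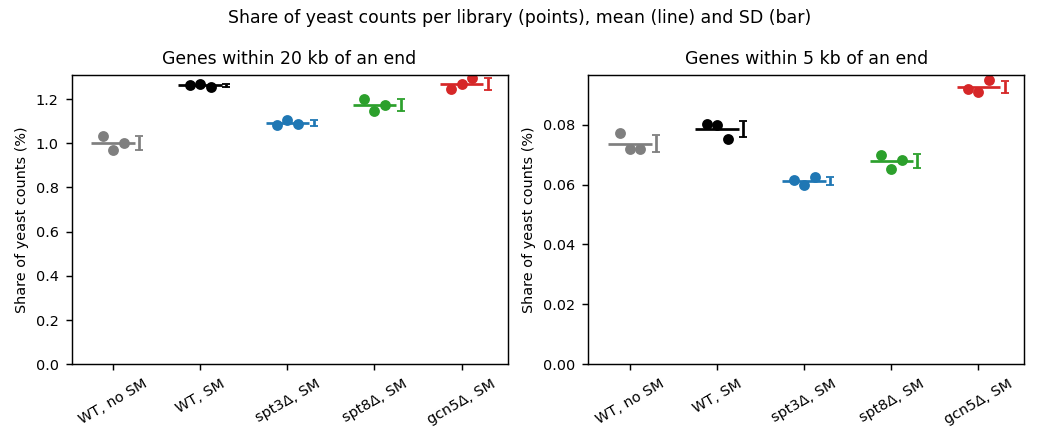
Share of yeast counts (%, y axis) taken by genes within 20 kb (left) and within 5 kb (right) of a chromosome end in each of the 15 libraries, by group. Points are libraries, lines are means and bars are SD. On the right the gcn5∆ mean of 0.0926% is the highest and the spt3∆ mean of 0.0612% the lowest.

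SM in WT. Most subtelomeric genes rose after 25 min of SM. Of 271 tested members 203 (74.9%) rose and 7 (2.58%) fell by edgeR's quasi-likelihood test at an adjusted p of 0.05, where 55.7% of all tested genes rose and 7.57% fell. The median log2 fold change was 1.5, against 0.52 for other nuclear genes. The spike-in scale itself raised the median of other genes by about 0.5 over scaling by TMM, under which 179 members rose, 33 fell and the medians were 1.00 and 0.02. By distance the median was 0.77 within 5 kb, 1.43, 1.59 and 1.80 in the next 3 steps of 5 kb, 0.88 at 20 to 40 kb and 0.51 beyond. The medians of 31 of 32 chromosome ends lay above that of other nuclear genes, from 0.32 at the left end of XIII to 2.53. Weakly expressed genes rose most everywhere: other nuclear genes with a mean under 100 scaled counts had a median of 2.37 and subtelomeric genes of that level had 1.94. At 100 to 1000 scaled counts the medians were 1.54 for subtelomeric and 0.88 for other genes, and above 1000 they were 0.74 and 0.40. The part of expression level in the difference was not tested. Over the 111 tested members with neither a copy nor an overlap, 80.2% rose and the median was 1.67.

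Genes of amino acid metabolism and DLD3 were among the 10 most abundant members. LYS1, which encodes saccharopine dehydrogenase of lysine synthesis and lies at chrIX:419615-420736, had 4818, 4840 and 4932 scaled counts in WT without SM and 23065, 23102 and 20527 with SM. The groups were far apart, and the log2 fold change was 2.19 ± 0.17 (SE, adjusted p = 9.6e-14). CHA1, the serine and threonine deaminase gene, had 3406, 3026 and 3344 without SM and 15089, 15401 and 13769 with SM (2.18 ± 0.19, adjusted p = 1.1e-12). DLD3, which encodes a cytosolic D-lactate dehydrogenase, was the most abundant member and had 7612 ± 542 and 26426 ± 1924 scaled counts (SD, n = 3; 1.80 ± 0.17, adjusted p = 8.4e-12). These libraries did not overlap either.

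Several families had every tested member called higher. All 17 tested PAU genes, which encode small cell wall mannoproteins, rose with a median of 2.57, and by TMM 15 of them did and none fell. Their examples ran from PAU18 (290 to 432 scaled counts on average, 0.58 ± 0.20) to PAU10 (3.70 ± 0.38), but PAU genes have up to 13 near-identical loci each. All 9 MAL, IMA and MPH genes, for maltose uptake and cleavage, rose with a median of 1.85, also by TMM. MAL31, a maltose permease gene with no near-identical copy, had 389, 404 and 381 scaled counts without SM and 2024, 2695 and 2099 with it (2.54 ± 0.20, adjusted p = 5.3e-14). All 6 AAD genes, named for likeness to aryl-alcohol dehydrogenases, rose with a median of 1.98, as did all 3 HXT hexose transporter genes (2.79), the 3 enolase-related ERR genes (1.67) and the 4 THI5 family genes (1.78). The 4 tested ARN, FRE and GEX genes (2.00), the 3 ARR arsenic resistance genes (1.06) and the 3 sulfur genes (1.71) all rose too. Of the 2 tested sugar alcohol genes of the SOR and MAN group, MAN2 rose (1.60) and SOR1 was not called (0.38). FLO10, a flocculin gene, rose from 4632 ± 303 to 14677 ± 1880 scaled counts (1.66 ± 0.19, adjusted p = 9.0e-10), and YPS5, a yapsin-like protease gene, from 142 ± 9.9 to 1046 ± 131 (2.88 ± 0.21, adjusted p = 8.3e-15).

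Other called members rose from near 0. YFR056C had the largest such rise, from 0.8, 1.9 and 3.2 scaled counts to 34.7, 36.3 and 41.5 (4.18 ± 0.45, adjusted p = 2.3e-10). ECM34 had 0.8, 7.5 and 8.8 scaled counts without SM and 99.8, 107.7 and 80.8 with it (4.08 ± 0.35), and VBA3, a vacuolar amino acid transporter gene with a near-identical copy, had 1.6 to 4.7 and 37.1 to 44.0 (3.78 ± 0.48). YGL262W, YOR392W, HXT15 and PAU15 rose by 3.42 to 3.71 on the log2 scale.

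The COS and YRF1 families moved little. Of 11 tested COS genes, whose products sort membrane proteins for degradation, 3 rose and 2 fell, with a median of 0.06, and by TMM 3 rose and 7 fell. COS5 had 4876 to 5122 scaled counts without SM and 4436 to 5634 with it. Of 8 YRF1 genes, which encode the Y′ helicase, 2 rose and none fell, with a median of 0.20, while by TMM none rose and 3 fell. The direction of both families thus depended on the scale.

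Few members fell. HXK1, the gene of hexokinase 1 at chrVI:253592-255049, had 40635, 38387 and 37414 scaled counts without SM and 13917, 17557 and 14397 with it (−1.34 ± 0.20, adjusted p = 3.9e-07). It shares strand and sequence with the overlapping YFR052C-A, so reads between them are uncertain. The other called falls were between −0.50 and −0.42 apart from YFR052C-A, in ERO1, IMD2, RET2, COS1 and COS3. Leaving out WT with SM replicate 3 lowered the share called lower to 0.733%, and leaving out WT without SM replicate 3 lowered it to 1.47%.

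**Figure D2:**
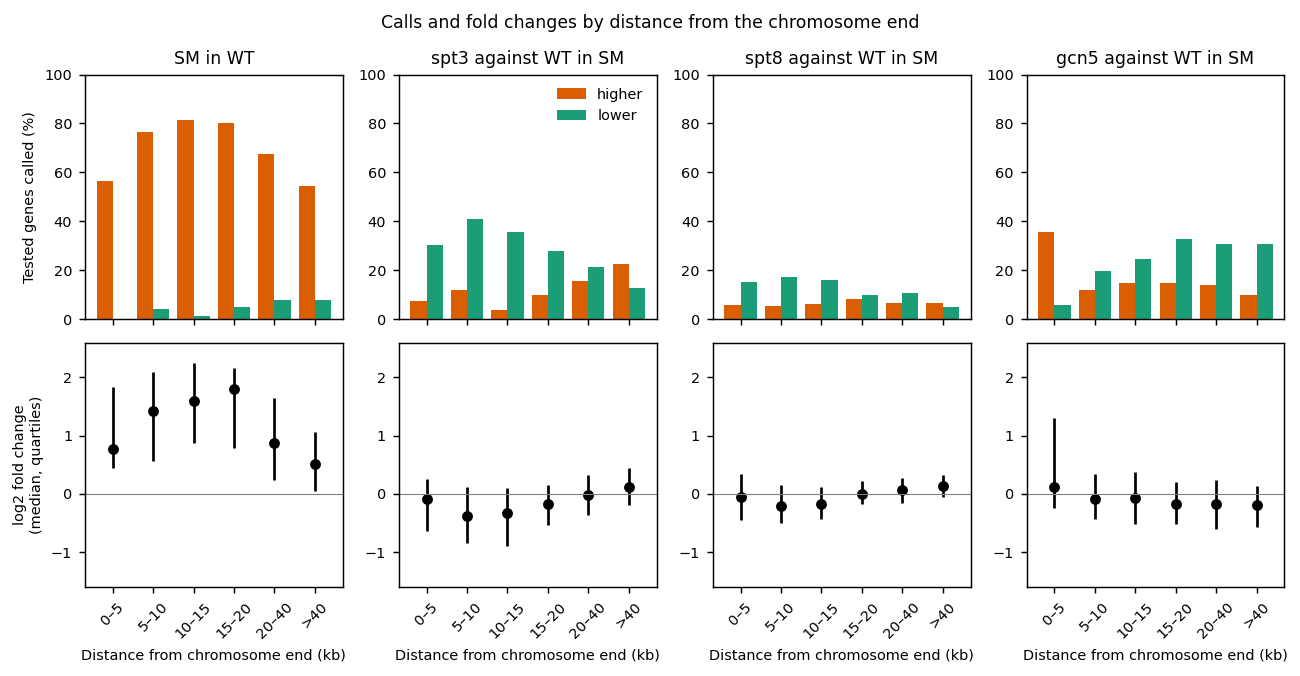
Share of tested genes called higher (orange) or lower (green) at an adjusted p of 0.05 (top) and median log2 fold change with quartiles (bottom), by distance from the chromosome end in kb, for SM in WT and the 3 deletions against WT in SM. In gcn5∆ 35.8% of genes within 5 kb were higher, and in spt3∆ 40.8% of those at 5 to 10 kb were lower.

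spt3∆ against WT in SM. Subtelomeric genes were lower in spt3∆. Of 271 tested members 93 (34.3%) were lower and 22 (8.12%) higher, where 14.0% of all tested genes were lower and 21.7% higher. The median was −0.29, against 0.12 for other nuclear genes, and the medians of 30 of 32 ends lay below the latter. The share called lower was 30.2% within 5 kb, 40.8% at 5 to 10 kb, 35.8% at 10 to 15 kb and 27.9% at 15 to 20 kb, against 21.5% at 20 to 40 kb. At 100 to 1000 scaled counts 41.2% of subtelomeric and 21.3% of other genes were lower, whereas under 100 scaled counts the shares were 26.4% and 26.8%. Among the 111 members without copy or overlap 37.8% were lower. Leaving out spt3∆ replicate 1 lowered the share called higher to 3.30%, and leaving out WT with SM replicate 3 lowered it to 4.03%.

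The sugar genes were among the lowest. HXK1 had 1112, 837 and 1189 scaled counts in the spt3∆ libraries, all far below the 3 WT libraries, a 14.6-fold lower level (−3.87 ± 0.22, adjusted p = 3.3e-16). MAL31 had 393, 323 and 418, close to WT without SM (−2.59 ± 0.20, adjusted p = 3.7e-13). The permease gene MAL11, the maltase genes MAL12 and MAL32 and the activator gene MAL33 were lower by 1.65 to 2.08 on the log2 scale, and 8 of the 9 MAL, IMA and MPH genes were lower, with a median of −1.65. IMA3 was the one not called (−1.02 ± 0.42). All 3 ERR genes were lower with a median of −1.73. ERR2 had 1438 ± 118 scaled counts in WT and 433 ± 30.5 in spt3∆ (−1.73 ± 0.18, adjusted p = 1.1e-09), though the 3 ERR genes are near-identical copies.

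Further members were lower in spt3∆. YPS5 had 212, 235 and 200 scaled counts in spt3∆ and 941 to 1192 in WT (−2.28 ± 0.20, adjusted p = 1.9e-11), and its neighbour YGL258W-A was lower by a similar amount (−2.17 ± 0.22). YPS6 (−1.89 ± 0.19) and FLO10 (−1.25 ± 0.19) were lower too. Of 17 PAU genes 7 were lower and none higher, with a median of −0.29. Of 11 COS genes 8 were lower and none higher, with a median of −0.48, and by TMM all 11 were lower. COS6, the most abundant of them, had 10187 scaled counts on average in WT and 5625 in spt3∆ (−0.86 ± 0.17, adjusted p = 0.00013). IMD2, an IMP dehydrogenase gene of guanine nucleotide synthesis, had 366, 291 and 328 against 1212 to 1340 (−1.96 ± 0.18, adjusted p = 2.6e-11), and its pseudogene copy YAR073W was also lower (−2.19 ± 0.22). MSC1, a gene of unclear function, was lower by 2.12 ± 0.21 (adjusted p = 2.4e-10).

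The highest rise was that of the outermost gene on the right arm of chromosome VI. YFR057W (chrVI:269061-269516), long used as a native telomeric gene in studies of silencing, had raw counts of 0, 0 and 3 in WT without SM and 16, 16 and 4 with SM. In spt3∆ it had 264, 320 and 279, which is 272 ± 33.1 scaled counts against 12.9 ± 7.4 in WT with SM (SD, n = 3). The groups did not overlap, and the log2 fold change was 4.38 ± 0.32 (adjusted p = 2.0e-13). The spt8∆ libraries had 20, 22 and 16 raw counts and the gcn5∆ libraries 30, 23 and 32, so spt3∆ stood above both, by 3.82 ± 0.30 over spt8∆ (adjusted p = 6.3e-12) and 3.07 ± 0.29 over gcn5∆ (adjusted p = 4.7e-11). The next gene inward, YFR056C, was higher by 1.25 ± 0.26 and overlaps IRC7 beside it, and IRC7 itself was not called (−0.23 ± 0.18). Of all 53 tested genes within 5 kb of an end, 4 were higher in spt3∆ and 16 lower.

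Some members were higher in every deletion strain. YAR066W had 273, 403 and 292 scaled counts in WT with SM, 1048 to 1626 in spt3∆, 976 to 1122 in spt8∆ and 1130 to 1196 in gcn5∆, with no overlap with WT. Its log2 fold changes were 2.03 ± 0.19, 1.69 ± 0.19 and 1.86 ± 0.19, each with an adjusted p of at most 1.3e-08. YAR068W (1.73, 1.40 and 1.91) and YHR214W-A (2.11, 1.68 and 2.13) moved in the same direction, and each of these 3 genes of unknown function has 1 near-identical copy, so their values are uncertain. The iron transporter gene FET4 split the strains: it had 10364 to 13843 scaled counts in spt3∆, 11372 to 11792 in spt8∆, 5905 to 7188 in WT with SM and 1384 to 2010 in gcn5∆. The log2 fold changes against WT were 0.94 ± 0.20, 0.87 ± 0.20 and −1.93 ± 0.20. MGA2, which encodes a membrane-bound transcription factor, was higher in spt3∆ (1.01 ± 0.21) and spt8∆ (0.76 ± 0.21), and was not called in gcn5∆ (adjusted p = 0.9).

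YRF1 genes went the other way from most members in spt3∆. Of 8 tested, 6 were higher and none lower, with a median of 0.58, and by TMM 7 were higher. YRF1-1 had 4542, 2787 and 3348 scaled counts in spt3∆ and 2137 to 2587 in WT (0.61 ± 0.19, adjusted p = 0.012), but it has 14 near-identical loci, so these 8 values do not stand for 8 separate measurements.

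**Figure D3:**
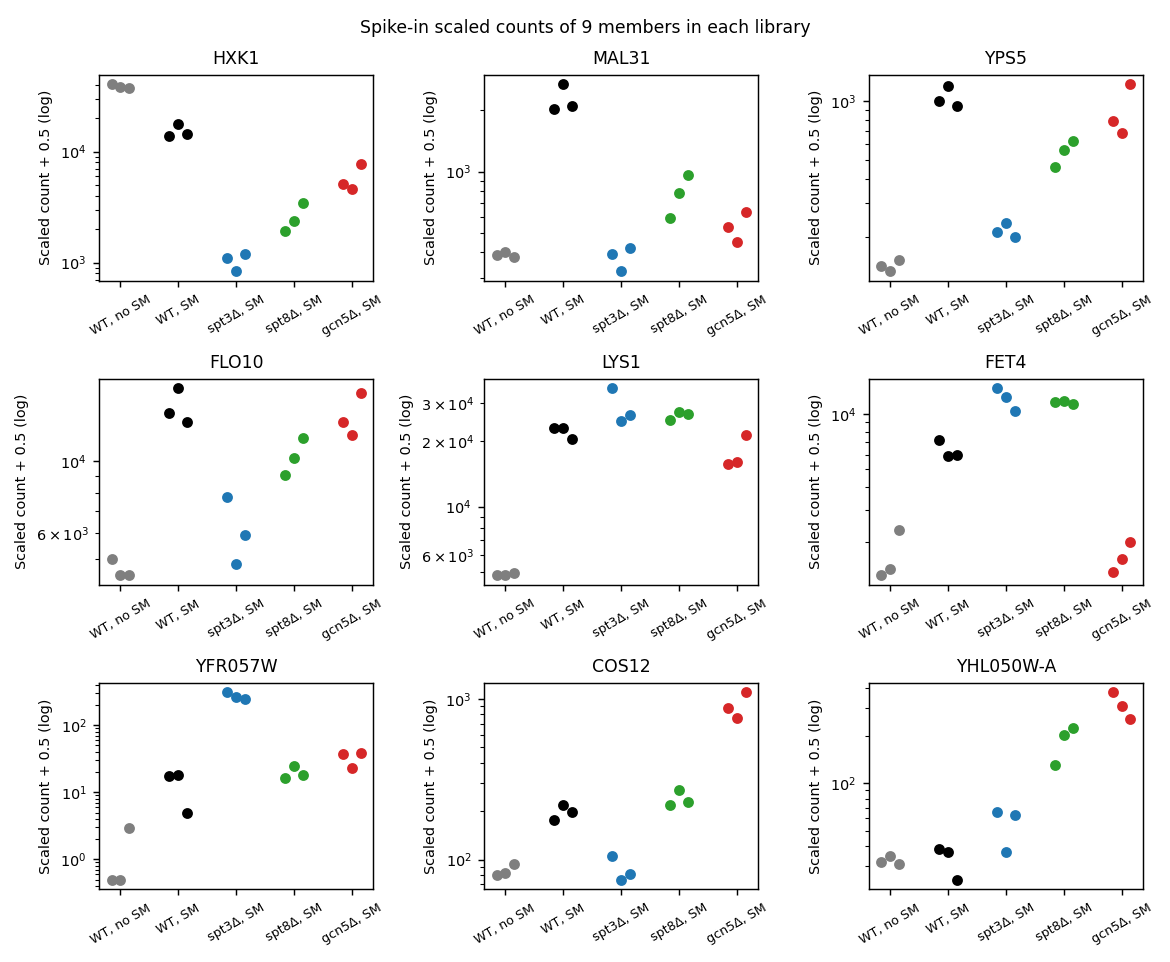
Spike-in scaled counts plus 0.5 (log axis) of 9 subtelomeric genes in each of the 15 libraries, by group; points are libraries. YFR057W is high in the 3 spt3∆ libraries alone, COS12 and YHL050W-A are highest in gcn5∆, and HXK1 is lowest in spt3∆.

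spt8∆ against WT in SM. Fewer members differed in spt8∆. Of 271 tested members 40 (14.8%) were lower and 17 (6.27%) higher, where 5.58% of all tested genes were lower and 6.57% higher. The median was −0.12, against 0.13 for other nuclear genes. By TMM 98 were lower and 25 higher. Leaving out spt8∆ replicate 1 or 2, or WT with SM replicate 1 or 2, put the share called lower between 7.69% and 9.56%, and the share called higher fell to between 2.20% and 2.94% without spt8∆ replicate 2 or 3 or WT with SM replicate 1 or 3. HXK1 had 1930, 2389 and 3453 scaled counts (−2.56 ± 0.21, adjusted p = 2.2e-11), MAL31 591, 780 and 962 (−1.55 ± 0.19, adjusted p = 1.2e-07) and IMD2 567, 434 and 442 (−1.41 ± 0.17, adjusted p = 1.4e-07). These libraries lay between those of spt3∆ and WT for all 3 genes. All 3 ERR genes and 5 of the 9 MAL, IMA and MPH genes were lower, whereas none of 11 COS genes was called, and by TMM 7 of the latter were lower.

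Set directly against spt8∆, spt3∆ had 28 members lower (10.3%) and 5 higher (1.85%), where 2.39% of all tested genes were lower and 1.1% higher. These strains lie in different library sets. By TMM the counts were 82 and 22. The largest falls were in YHL050W-A (−1.77 ± 0.25), COS12 (−1.48 ± 0.20) and YGL258W-A (−1.40 ± 0.22), and YRF1-8 was higher in spt3∆ after YFR057W (1.49 ± 0.24). Leaving out single libraries moved the share called lower from 10.3% to as little as 4.40% (without spt8∆ replicate 3), with 5.15% without spt3∆ replicate 2, 5.86% without spt8∆ replicate 2 and 6.59% without spt3∆ replicate 3.

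gcn5∆ against WT in SM. Calls went in both directions in gcn5∆. Over all 271 tested members 49 (18.1%) were higher and 58 (21.4%) lower, where 10.5% of all tested genes were higher and 30.4% lower. The median was −0.07, against −0.20 for other nuclear genes, and by TMM 100 were higher and 56 lower. Of the 53 tested genes within 5 kb, 19 (35.8%) were higher and 3 (5.66%) lower. Of these 53, 9 are near-identical open reading frames opposite Y′ genes, all called higher, and without them 10 of 44 (22.7%) were higher and 3 (6.82%) lower, with a median of −0.01. That count was chosen after seeing the data, and weakly expressed genes can be among those tested through high gcn5∆ counts alone. At 15 to 20 kb 14.8% were higher and 32.8% lower, and beyond 40 kb 9.95% and 30.9%. Among weakly expressed genes, those under 100 scaled counts, 25.0% of subtelomeric and 9.34% of other nuclear genes were higher, with medians of 0.29 and −0.49, and without the Y′ frames the subtelomeric values were 18.2% and 0.09. At 100 to 1000 scaled counts 21.9% of subtelomeric and 11.8% of other genes were higher. Above 1000 the order of the shares turned, with 7.06% of subtelomeric and 9.86% of other genes higher. The order of the medians did not turn there, at −0.12 and −0.16. The share called lower was 13.2% without gcn5∆ replicate 1, 13.2% without replicate 2 and 35.4% without replicate 3, while the share called higher stayed between 14.3% and 21.2%.

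COS12 gave the clearest case of a gene without a copy or overlap. It lies at chrVII:2790-3932 and had 176, 216 and 198 scaled counts in WT with SM and 874, 758 and 1099 in gcn5∆, a 4.62-fold rise with no overlap (2.21 ± 0.20, adjusted p = 2.4e-11). In spt3∆ it had 104, 74 and 80 (−1.20 ± 0.21, adjusted p = 1.7e-05), and in spt8∆ 218, 272 and 228 (not called, adjusted p = 0.36). No other of the 11 COS genes was higher in gcn5∆. Of the 8 tested genes within 5 kb that have neither copy nor overlap, 5 were higher in gcn5∆ and 1 lower.

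Open reading frames on the strand opposite Y′ genes number 22 among the members, a group put together after their values were seen. Of these 12 had too few counts to test, and the 10 tested were called higher in gcn5∆, with a median of 2.18, also by TMM. The median level of all 22 was 0.535 CPM per kb in gcn5∆ and 0.151 in WT with SM. High gcn5∆ counts alone can carry such a frame past the filter, so the calls of the 10 do not describe the 22. YHL050W-A had raw counts of 36, 33 and 22 in WT with SM, 56, 44 and 71 in spt3∆, 162, 182 and 201 in spt8∆ and 309, 310 and 212 in gcn5∆ (2.49 ± 0.27 in spt8∆, adjusted p = 5.2e-09, and 3.25 ± 0.26 in gcn5∆, adjusted p = 3.0e-12). YML133W-B (2.80 ± 0.27), YEL077W-A (2.18 ± 0.22) and YLR466C-A (2.19 ± 0.22) rose likewise. In scaled counts YLR466C-A had 110, 123 and 90.1 in WT and 565, 504 and 402 in gcn5∆, without overlap. The sequences printed above differ at a few positions only, so these 10 do not stand for 10 separate measurements. The genes on the facing strand changed less: YHL050C had 984 to 1330 scaled counts in WT and 962 to 1891 in gcn5∆ (0.12 ± 0.21, not called), and 1 of 8 YRF1 genes was higher, or 6 by TMM. Whether the counting used strand is not stated, so reads from the 2 strands cannot be told apart with certainty.

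The THI5 family was called higher in gcn5∆ and not in spt3∆ or spt8∆, though by TMM 2 of the 4 genes were also higher in spt3∆. All 4 genes were higher in gcn5∆, with a median of 0.97. THI5 had 122, 168 and 130 scaled counts in WT with SM and 358, 350 and 415 in gcn5∆ (1.42 ± 0.21, adjusted p = 1.1e-06), and 158 to 252 in spt3∆ (adjusted p = 0.079). All 4 were also higher in gcn5∆ than in spt3∆ and than in spt8∆ by the direct comparisons. PHO89, a sodium-phosphate cotransporter gene, had 100 to 146 in WT and 352 to 505 in gcn5∆ (1.69 ± 0.22, adjusted p = 8.7e-08), and YJR157W rose from 9.9 to 25 up to 107 to 140 (2.82 ± 0.32).

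Some sugar genes were lower in gcn5∆ and others were not called. MAL31 had 532, 450 and 630 scaled counts (−2.08 ± 0.19, adjusted p = 7.3e-11), HXK1 5058, 4590 and 7650 (−1.41 ± 0.20, adjusted p = 7.4e-07) and MPH2 355, 373 and 562 (−1.46 ± 0.20, adjusted p = 1.7e-07). Of the 9 MAL, IMA and MPH genes 6 were lower, with a median of −1.14, and by TMM 6 were lower while MAL33 and IMA4 were higher. None of 3 HXT genes and neither of the SOR and MAN genes was called, and 1 of 3 ERR genes was lower. MAL33 had 1321 scaled counts on average in WT and 1470 in gcn5∆ (0.15 ± 0.17, not called), where spt3∆ had 384. Of 5 SNO and SNZ genes, which take part in vitamin B6 synthesis, 3 were lower, SNZ2 by 0.87 ± 0.25 and SNZ3 by 0.72 ± 0.23 on the log2 scale among them.

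**Figure D4:**
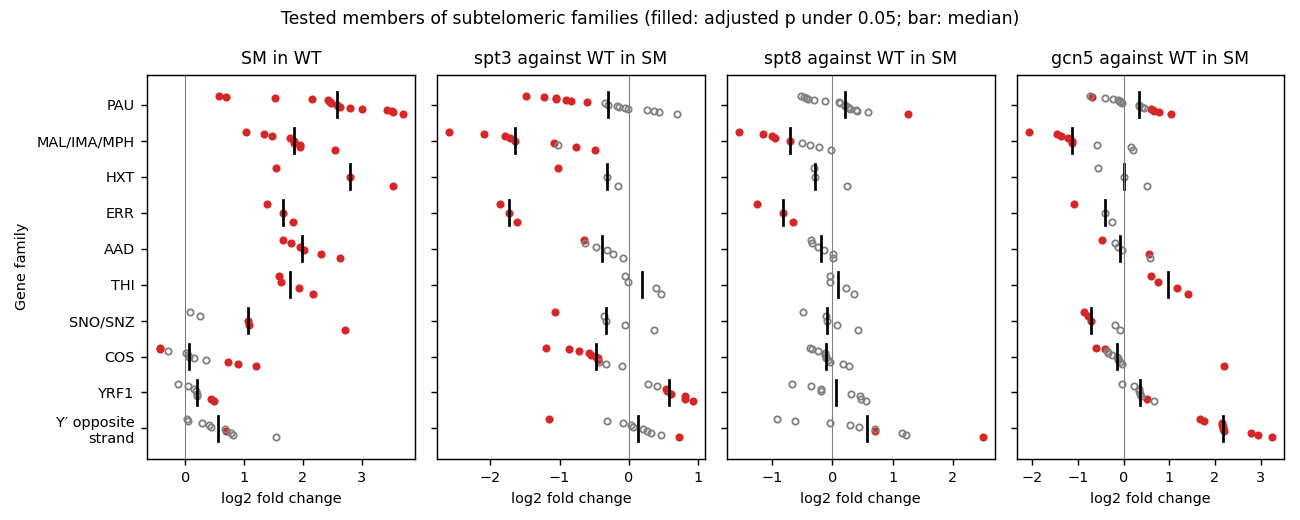
Log2 fold changes of tested members of 9 gene families and of the open reading frames opposite Y′ genes, for SM in WT and the 3 deletions against WT in SM. Filled points passed an adjusted p of 0.05, open points did not, and bars are medians; all 17 PAU genes rose with SM and the 10 tested Y′ opposite-strand frames were higher in gcn5∆.

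The deletion strains were then set against each other. Within the second library set, spt8∆ had 77 members lower (28.4%) and 46 higher (17%) than gcn5∆, where 7.75% of all tested genes were lower and 37.1% higher. Of the 53 tested genes within 5 kb, 20 (37.7%) were lower in spt8∆ and 2 higher, and without the Y′ frames 11 of 44 (25.0%) were lower. By TMM 138 members were lower and 32 higher. Between the sets, spt3∆ had 101 members lower (37.3%) and 41 higher (15.1%) than gcn5∆, where 9.72% of all tested genes were lower and 37.3% higher, and by TMM 172 and 31. Without spt3∆ replicate 1, gcn5∆ replicate 1 or gcn5∆ replicate 2 the share called higher was 8.42%, 8.79% and 8.79%, and without gcn5∆ replicate 3 it was 27.3%. Against gcn5∆, the share higher in spt8∆ was 32.1% without gcn5∆ replicate 3. The median of every one of the 32 ends lay below that of other nuclear genes in spt3∆ against gcn5∆, and 29 of 32 did in spt8∆ against gcn5∆. FET4 was the member with the largest excess over gcn5∆ in spt8∆ (2.79 ± 0.21, adjusted p = 3.0e-13), and COS12 was 3.41 ± 0.21 lower in spt3∆ than in gcn5∆ on the log2 scale (adjusted p = 1.6e-15).

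**Figure D5:**
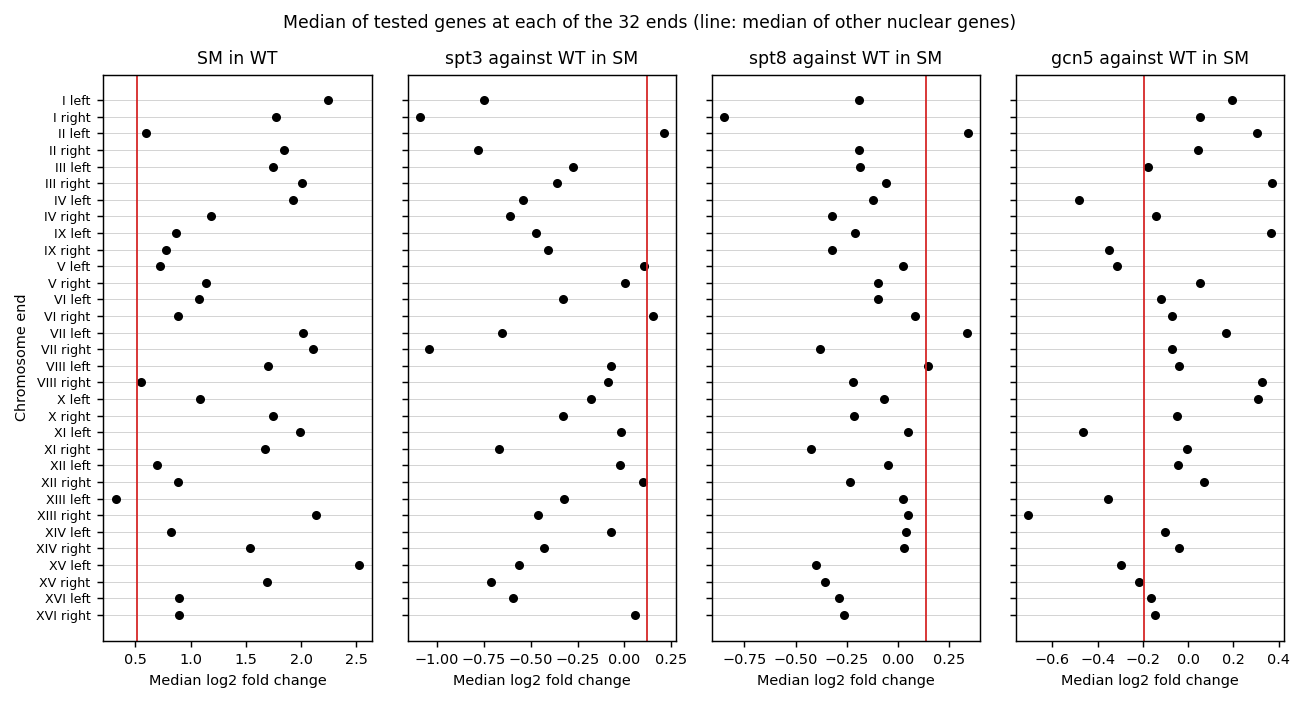
Median log2 fold change (x axis) of the tested genes at each of the 32 chromosome ends (y axis), with 4 to 13 tested genes per end, for SM in WT and the 3 deletions against WT in SM; the red line is the median of other nuclear genes. With SM 31 ends lie to the right of the line, and in spt3∆ 30 lie to its left.

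Genes of the silencing machinery were looked up beside these results. Of 26 genes for telomere-binding proteins, Sir proteins, histone modifiers and general repressors, 14 were higher and 1 lower with SM in WT. Of all tested genes 55.7% were higher there and 7.57% lower. In spt3∆ 14 were higher and 1 lower, in spt8∆ 3 and 0, and in gcn5∆ 6 and 0. Of all tested genes 21.7%, 6.57% and 10.5% were higher in these strains and 14.0%, 5.58% and 30.4% lower. RIF1, whose product binds Rap1 at telomeres, was higher in all 3 strains (1.45 ± 0.23, 0.91 ± 0.22 and 1.35 ± 0.23), and SIR4, a core Sir protein gene, in spt3∆ (1.15 ± 0.22) and gcn5∆ (1.03 ± 0.22). SIR2, the deacetylase gene, was called in none of the 3 (0.31 ± 0.19, 0.20 ± 0.19 and 0.14 ± 0.19), and SIR3 was higher in spt3∆ (0.71 ± 0.21). YKU70 was the gene that was lower in spt3∆ (−0.57 ± 0.18). RPD3, a histone deacetylase gene, is itself a member and was called in none of the 4 comparisons. Their part in the results was not tested.

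The silent mating cassette HML also lies within 20 kb of an end. HMLALPHA2 had 140, 108 and 134 scaled counts in WT without SM and 239, 367 and 248 with it (1.16 ± 0.21, adjusted p = 6.5e-06), and HMLALPHA1 rose by 1.75 ± 0.25. In gcn5∆ HMLALPHA1 had 59.8, 126.5 and 75.8 against 132, 142 and 181 in WT with SM (−0.78 ± 0.24, adjusted p = 0.0079). The call was lost by TMM (−0.56, adjusted p = 0.08), by total counts (adjusted p = 0.059) and without gcn5∆ replicate 1 (adjusted p = 0.067), while the adjusted p over the other alternatives ran from 0.00055 to 0.048. Neither was called in spt3∆ or spt8∆. Both have at least 1 identical locus elsewhere in the reference genome, and HMLALPHA1 overlaps YCL065W, so the source of their reads is uncertain.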

How the data were processed

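RNA was measured by stranded, rRNA-depleted, paired-end RNA-seq, per the labels' protocols. Per the submitters' processing notes STAR, SAMtools and DESeq2 were used with sacCer3, without versions. The authors deposited 1 table of raw counts per gene. The sources used here name no counter, strand setting or rule for reads shared by copies. The table holds 6692 yeast features, of which 28 are mitochondrial and 6664 nuclear, and 92 ERCC spike-ins, of which 74 were seen in every library. All 6664 nuclear features start with ATG in the R64 genome. Genes were matched to RefSeq by identifier, with 6008 matches, 238 of them among the 313 members.

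Size factors were medians of ratios over the spike-ins. edgeR 4.0.16 (quasi-likelihood, filterByExpr with a minimum count of 10 in 3 libraries, all 5 groups in 1 fit) tested 6564 yeast genes in 7 comparisons, with Benjamini-Hochberg adjustment over all of them and calls at an adjusted p of 0.05. The ± after a log2 fold change is its SE, and ± after counts is SD over 3 libraries. R was 4.3.3, limma 3.58.1, DESeq2 1.42.0, Python 3.11.15, pandas 2.3.3 and BLAST+ 2.17.0, which found copies. The fits were tested on simulated data. Levels are CPM per kb, averaged over libraries.

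Genes named are the 8 largest called rises and falls per main comparison (4 between deletions) with at least 1 CPM and no overlap between groups, the 3 most abundant and 2 most changed of each family, the 10 most abundant members, the HML genes and up to 4 silencing genes per comparison. YFR056C's neighbour IRC7, YHL050C and other family members, and SIR2, SIR3 and RPD3, were named after their values were seen. The members and all lists were chosen with earlier results of these data known. Alternatives were TMM and total count scaling, DESeq2, no filter, only the 2 groups compared, a replicate block, single libraries left out, limits of 10 and 30 kb, chromosome length from the reference, members without copies or overlaps and, added after seeing the data, members without the frames opposite Y′ genes.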

Additional observations from a re-analysis of the deposited data

How the results depend on the processing

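The sign of each difference in median log2 fold change between subtelomeric and other nuclear genes was the same under every alternative run. Of the alternatives, chromosome length from the reference was not run for these differences. With that length the members took 0.948% of yeast counts in WT without SM and 1.13% with SM. They took 0.957% in spt3∆, 1.04% in spt8∆ and 1.14% in gcn5∆. For gcn5∆ against WT the difference was small throughout: 0.12 in the main fit, 0.05 over members without copies or overlaps and 0.17 with DESeq2 or no filter. With a limit of 30 kb the differences were 0.88 for SM in WT (0.98 at 20 kb), −0.29 for spt3∆ (−0.41), −0.17 for spt8∆ (−0.25), −0.18 between spt3∆ and spt8∆ and −0.44 between spt3∆ and gcn5∆, and at 10 kb the SM value was 0.73. DESeq2 and no filter both gave 0.88 for SM and −0.34 for spt3∆, and members without copies or overlaps gave 1.15 for SM. With TMM the shares called lower were 12.2% (SM), 52.4% (spt3∆), 36.2% (spt8∆), 30.3% (spt3∆ over spt8∆), 63.5% (spt3∆ over gcn5∆) and 50.9% (spt8∆ over gcn5∆), and those called higher were 36.9% in gcn5∆ and 8.12% in spt3∆ over spt8∆. With total counts the shares lower were 6.64% (SM), 32.1% (spt8∆), 30.6% (spt3∆ over spt8∆), 58.7% (spt3∆ over gcn5∆) and 45.8% (spt8∆ over gcn5∆), and those higher 10.3% (spt8∆), 32.5% (gcn5∆) and 7.38% (spt3∆ over spt8∆). Fitting only the 2 groups compared gave 4.35% lower for SM, 13% higher and 26.8% lower for spt8∆, and 5.70% and 19.0% for spt3∆ over spt8∆. The share lower for SM was 4.33% at 30 kb. At 10 kb the share lower in gcn5∆ was 14.0%, and the shares higher were 3.88%, 10.1% and 9.30% in the 3 comparisons between deletions, and without copies the first of these was 0.901%. The cause of these shifts was not tested.

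Leaving out single libraries, the differences in medians ran from 0.89 to 1.03 (SM), −0.42 to −0.34 (spt3∆) and −0.27 to −0.21 (spt8∆). The shares called lower ran from 0.733% to 2.93% (SM), 7.69% to 11.7% (spt8∆), 13.2% to 35.4% (gcn5∆) and 4.40% to 9.52% (spt3∆ over spt8∆). The shares called higher ran from 3.30% to 8.09% (spt3∆), 2.20% to 5.13% (spt8∆), 0.733% to 2.94% (spt3∆ over spt8∆), 8.42% to 27.3% (spt3∆ over gcn5∆) and 11.4% to 32.1% (spt8∆ over gcn5∆).

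Over the settings run for 74 genes, 10 of 3546 values turned in direction. With TMM the log2 fold change with SM was −0.48 for COS5, −0.29 for YRF1-1, −0.30 for MGA2, −0.32 for NRE1, −0.41 for SNZ3, −0.02 for YRF1-4 and −0.36 for COS8, and 0.19 for ERO1 in gcn5∆. With total counts it was −0.22 for COS5 and 0.13 for ERO1 in gcn5∆.

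The labels do not say whether a replicate number pairs samples. Between libraries of the same number, correlations of deviations from the group mean ran from −0.36 to 0.22 with spike-ins. No comparison had all 3 above 0.1, but with 3 libraries per group this cannot show that pairing was absent. With a replicate block the shares were 74.2% higher for SM, 30.3% lower for spt3∆, 11.8% lower for spt8∆ and 17.3% higher for gcn5∆. Among named genes, COS3 lost its call with SM, IMA4, YOL159C-A, YHL050W-A and COS3 in spt3∆, and YRF1-1 in gcn5∆.

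Near-identical copies or overlaps limit 197 members whatever the depth, and 42 members had too few counts to test.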
